A study of Homo sapiens with 12 samples.

Results

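Cholesterol import into mitochondria and cleavage of its side chain open the synthesis of all steroid hormones, and 4 genes encode the proteins of these steps: STAR, CYP11A1, FDX1 and FDXR. They were taken by symbol from a table of 60617 Ensembl genes counted in NCI-H295R cells, an established human adrenocortical carcinoma line that makes steroids. All 4 were found once each, and all 4 were among the 20360 genes tested. Polyadenylated RNA was sequenced from 4 groups of 3 biological replicates, all in culture for 96 h. EZH2i cultures were given 62 µM EPZ-6438, which inhibits the histone methyltransferase EZH2, throughout. CBPi cultures were given 26 µM PRI-724, which keeps the coactivator CBP from β-catenin, throughout. Both doses are IC50 doses per the labels. FSK cultures were given vehicle and then, for the last 48 h, 10 µM forskolin, an activator of adenylyl cyclase. Baseline cultures were given only the vehicle, DMSO. Every group is the same tumour line, exposure to forskolin was shorter than to either inhibitor, and only RNA was measured.

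In steroid-making cells the protein StAR, encoded by STAR, moves cholesterol from the outer to the inner mitochondrial membrane, the step that limits the acute response to hormone. There CYP11A1, a cytochrome P450, cleaves the side chain and makes pregnenolone. Its electrons come from NADPH through the flavoprotein ferredoxin reductase, encoded by FDXR, and the iron-sulfur protein ferredoxin (adrenodoxin), encoded by FDX1. In the adrenal cortex ACTH acts through cAMP on these genes, and the nuclear receptor SF-1, encoded by NR5A1, is known to bind promoters of STAR and CYP11A1. FDX1 is also known for its part in the lipoylation of mitochondrial enzymes.

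The cleavage gene CYP11A1 (ENSG00000140459) lies on the minus strand of chromosome 15 at 74337759 to 74367740, in GENCODE 29 coordinates on GRCh38. FDX1 (ENSG00000137714) lies on the plus strand of chromosome 11 at 110429883 to 110464881, and FDXR (ENSG00000161513) on the minus strand of chromosome 17 at 74862497 to 74873031. All are protein-coding. The 250 bases before the RefSeq starts (GRCh38.p14) of CYP11A1, FDX1 and FDXR are given below. They are shown because the genes changed in the same direction within each of the 3 treatments described below. No such window of STAR was examined. Capitals mark an SF-1 type sequence (CAAGGTCA or CAAGGCCA) or a GC box (GGGCGG), the usual binding sequence of the factor SP1, each searched on both strands.
CYP11A1, chr15:74367647-74367896, minus strand: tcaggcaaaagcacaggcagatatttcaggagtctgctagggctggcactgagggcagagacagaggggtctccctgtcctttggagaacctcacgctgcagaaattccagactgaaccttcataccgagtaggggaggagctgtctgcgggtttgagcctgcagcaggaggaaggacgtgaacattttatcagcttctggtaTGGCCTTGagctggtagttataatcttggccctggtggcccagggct
FDX1, chr11:110429698-110429947, plus strand: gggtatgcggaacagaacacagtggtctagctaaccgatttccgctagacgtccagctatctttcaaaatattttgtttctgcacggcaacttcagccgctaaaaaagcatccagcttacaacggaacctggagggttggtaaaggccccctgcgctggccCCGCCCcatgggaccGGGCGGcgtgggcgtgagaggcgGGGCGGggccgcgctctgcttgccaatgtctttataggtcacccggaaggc
FDXR, chr17:74872995-74873244, minus strand: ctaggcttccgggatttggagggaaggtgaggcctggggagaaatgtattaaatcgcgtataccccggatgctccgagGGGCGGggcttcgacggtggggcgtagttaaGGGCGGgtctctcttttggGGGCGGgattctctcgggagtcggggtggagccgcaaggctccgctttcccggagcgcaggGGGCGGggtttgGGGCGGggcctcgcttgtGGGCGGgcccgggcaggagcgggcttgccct
The 3 windows differ in make-up. CYP11A1 held 1 SF-1 type sequence, 47 to 40 bases before the start and on the opposite strand, and no GC box, with a GC content of 54.4%. FDX1 held 3 GC boxes in 58.4% GC. FDXR held 6 GC boxes in 67.6% GC, and a second, downstream start listed for FDXR held none in the same length. Of 35116 windows of this length before RefSeq starts, 2.49% held an SF-1 type sequence and 42.6% a GC box. A full cAMP response element (TGACGTCA), which 1.65% of windows hold, is not in these 250 bases of any of the 3 genes. GENCODE 29 starts each of the 3 genes inside its window, upstream of the RefSeq start. These matches describe letters and are not measured binding.

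Library totals were 20.6 to 31.5 megacounts, and replicates correlated at 0.992 to 0.996 (Pearson's r across genes, log2 scale). The 2 pairs that include CBPi replicate 2 differed most from counting noise (chi-square per degree of freedom 13.2 and 12.1, against 2.56 to 6.68 for the other pairs). No pair of libraries was identical. Mitochondrially encoded genes took 3.76% ± 0.58 of counts under EZH2i, 4.11% ± 0.64 under CBPi, 2.94% ± 0.29 under FSK and 2.74% ± 0.44 at baseline (SD, n = 3). All 11 genes of an adrenocortical list, which holds STAR and CYP11A1, were detected, and their summed level was 2988 to 3148 CPM under EZH2i, 3355 to 4029 under CBPi, 8825 to 9406 under FSK and 6504 to 6765 at baseline. DLK1 alone gave most of that sum, at 2451 CPM under EZH2i, 3163 under CBPi, 5071 under FSK and 4578 at baseline. Gene by gene, 11 of the 11 were called lower under each inhibitor (median log2 fold change -2.28 and -2.25), and 8 higher and 2 lower (MRAP and SULT2A1) under FSK (median 0.41). Over all genes tested, 28.3% were called lower under EZH2i and 29% under CBPi. Under FSK 25.5% of all genes were called higher and 25.1% lower. The 4 genes had 1333 to 30280.5 counts per library, where counting error alone gives a coefficient of variation of at most 2.74%. Values below are TMM-scaled CPM, the share of a library's counts corrected for composition, unless given per length.

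Under vehicle, all 4 genes stood high in the transcriptome. On the TPM scale, which divides by gene length, STAR averaged 569 ± 9.3, FDXR 376 ± 14, CYP11A1 295 ± 12 and FDX1 135 ± 6.9 at baseline (SD, n = 3). These levels ranked 202, 365, 503 and 1339 among the 20360 genes. The reductase mRNA was thus more abundant per length than that of the ferredoxin it serves. The order STAR, FDXR, CYP11A1, FDX1 was also that of FSK, at 1016, 469, 331 and 249 TPM and ranks 94, 276, 436 and 597. With EZH2i the levels were 148 TPM for STAR, 144 for FDXR, 53.7 for FDX1 and 50.9 for CYP11A1, and under CBPi 124, 101, 62.6 and 61.4 TPM in the same order. The ranks of STAR, FDXR, FDX1 and CYP11A1 were 1114, 1146, 3675 and 3863 under EZH2i and 1310, 1678, 2960 and 3025 under CBPi. The lengths are the deposited ones, 3397 to 3767 bases for STAR, CYP11A1 and FDXR and 3144 for FDX1. For STAR and FDXR they equal the union of all exons in GENCODE 29, so TPM depends on transcripts these cells may not make.

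**Figure D1:**
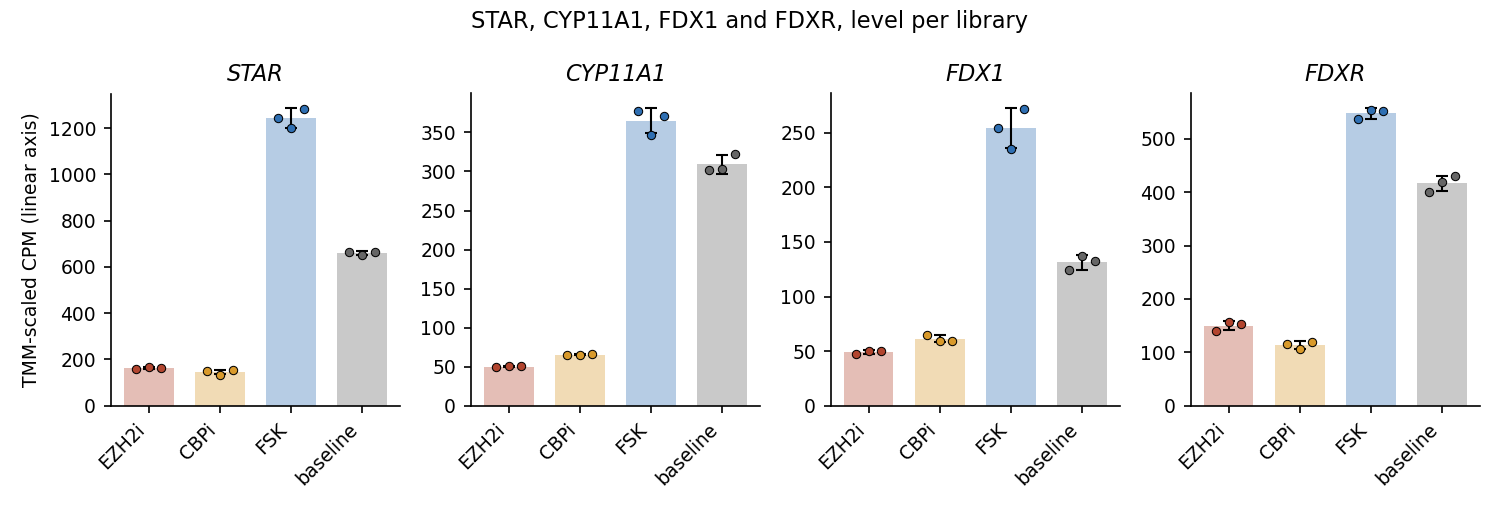
Level of each gene in TMM-scaled CPM (vertical axes, linear, each from 0) in the groups EZH2i, CBPi, FSK and baseline. Points are libraries, bars the mean and error bars the SD of 3. In every panel the EZH2i and CBPi libraries lie below and the FSK libraries above all baseline libraries.

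STAR (ENSG00000147465), the gene of the cholesterol importer, is protein-coding and lies on the minus strand of chromosome 8 at 38143649 to 38151265 (GENCODE 29, GRCh38). It fell with both inhibitors and rose with forskolin. It had 157, 167 and 161 CPM in the EZH2i libraries and 151, 134 and 153 CPM in the CBPi libraries. In FSK libraries STAR had 1244, 1200 and 1285 CPM, against 666, 651 and 665 CPM at baseline. The ranges of EZH2i and of CBPi lie far below baseline and that of FSK above it, with no overlap. STAR was 4.09-fold lower under EZH2i (log2 fold change -2.03 ± 0.05 SE, adjusted p = 1.13e-17, by the quasi-likelihood F test of edgeR, Benjamini-Hochberg adjusted) and 4.53-fold lower under CBPi (-2.18 ± 0.05, adjusted p = 5.16e-18). It was 1.88-fold higher under FSK (0.91 ± 0.05, adjusted p = 9.21e-13).

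CYP11A1, the side-chain cleavage enzyme, had the largest fall of the 4 genes under EZH2i and the smallest rise under forskolin. Its level was 49.4, 50.3 and 50.8 CPM under EZH2i and 64.6, 64.8 and 65.7 CPM under CBPi. It was 377, 347 and 371 CPM under FSK, against 302, 303 and 323 CPM at baseline. The FSK libraries lie just above the baseline ones, whereas the inhibitor libraries are several-fold lower. CYP11A1 was 6.16-fold lower under EZH2i (log2 fold change -2.62 ± 0.04 SE, adjusted p = 2.2e-19, edgeR) and 4.75-fold lower under CBPi (-2.25 ± 0.04, adjusted p = 1.42e-18). The rise under FSK was 1.18-fold (log2 fold change 0.24 ± 0.04 SE, 95% interval 0.16 to 0.33, adjusted p = 5.17e-05, edgeR).

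FDX1, which encodes the electron carrier ferredoxin, fell under both inhibitors and rose under forskolin. Its fall under CBPi was the smallest of the 4. Its fall under EZH2i was within the error of that of FDXR, and its rise under FSK within the error of that of STAR. It had 47.1, 49.8 and 50.2 CPM under EZH2i and 65.1, 59.3 and 59.5 CPM under CBPi. FSK libraries had 255, 236 and 272 CPM, against 124, 137 and 132 CPM at baseline. All FSK libraries were well above, and all inhibitor libraries well below, the baseline range. FDX1 was 2.68-fold lower under EZH2i (log2 fold change -1.42 ± 0.06 SE, adjusted p = 4.71e-14, edgeR), 2.15-fold lower under CBPi (-1.10 ± 0.06, adjusted p = 2.16e-12) and 1.93-fold higher under FSK (0.95 ± 0.05, adjusted p = 8.12e-12).

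FDXR, which encodes the reductase that loads ferredoxin, fell further under CBPi than under EZH2i. It had 141, 157 and 152 CPM under EZH2i and 115, 106 and 120 CPM under CBPi. With FSK it had 537, 554 and 552 CPM, against 401, 419 and 430 CPM at baseline. The groups again did not overlap. FDXR was 2.78-fold lower under EZH2i (log2 fold change -1.47 ± 0.05 SE, adjusted p = 2.32e-15, edgeR), 3.66-fold lower under CBPi (-1.87 ± 0.05, adjusted p = 8.47e-17) and 1.31-fold higher under FSK (0.39 ± 0.05, adjusted p = 6.47e-07).

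With each inhibitor 4 of 4 genes were called lower, and under FSK 4 of 4 were called higher. Over all genes tested, at the same adjusted p of 0.05, 28.3% were called lower under EZH2i (29.5% higher), 29% lower under CBPi (29.8% higher) and 25.5% higher under FSK (25.1% lower). No overlap between 3 libraries and 3 libraries was common as well, in 32.1%, 30.7% and 28.8% of genes in these directions. In a test against a 1.5-fold change (edgeR's glmTreat) all 4 were lower under EZH2i, where 4.79% of all genes were, and all 4 lower under CBPi, where 6.14% were. With FSK only STAR and FDX1 of the 4 passed that test as higher, as 5.34% of all genes did. Larger falls than that of CYP11A1 under EZH2i were seen in 0.339% of genes, and larger falls than those of STAR, FDXR and FDX1 in 0.634%, 1.37% and 1.49%. With CBPi 0.810% of genes had a larger fall than CYP11A1, 0.879% than STAR, 1.26% than FDXR and 4.32% than FDX1. With FSK the log2 fold changes of FDX1, STAR, FDXR and CYP11A1 exceeded those of 93.7%, 93.2%, 81.5% and 72.2% of genes. The 3 comparisons share the baseline libraries, so their values are not independent of each other. In RNA from whole cultures, fewer cells that make these mRNAs and less mRNA per cell cannot be told apart.

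**Figure D2:**
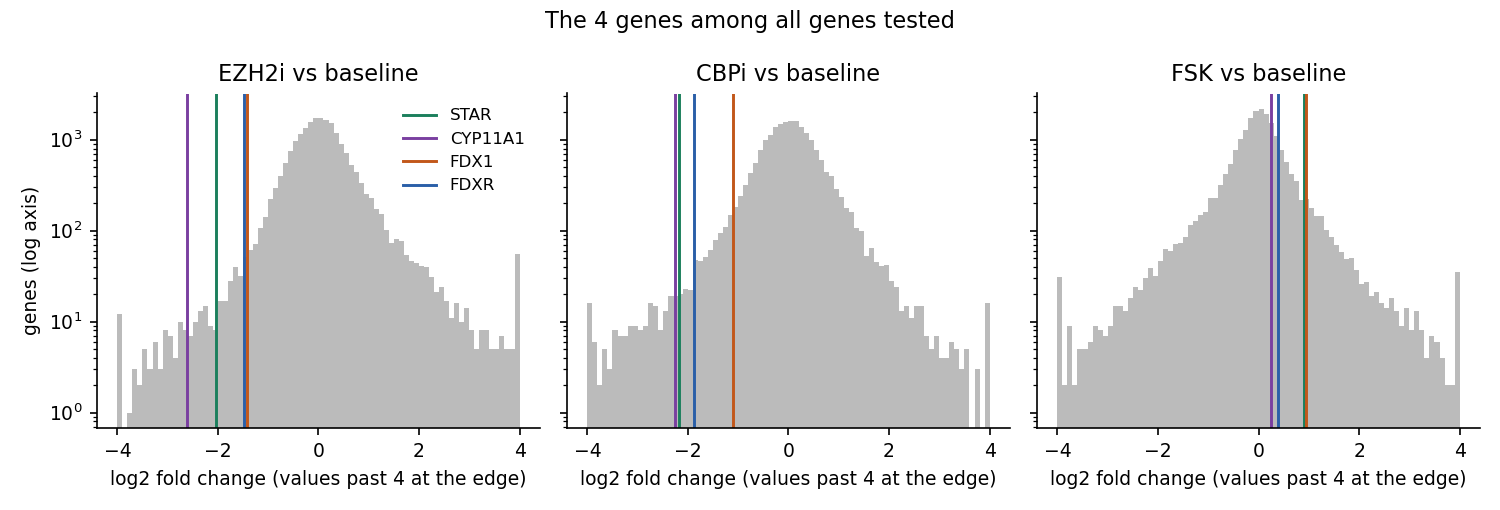
Distribution of log2 fold changes over baseline (horizontal axes) of all 20360 genes tested, with the number of genes on a log axis, for EZH2i, CBPi and FSK. Coloured lines mark the 4 genes, which lie in the lower tail for both inhibitors and, for FSK, from the shoulder (CYP11A1, 0.24) to the upper tail (FDX1, 0.95).

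The inhibitors were also compared with each other, over samples that share no baseline value. All 4 genes differed between EZH2i and CBPi, 2 in each direction, where 21.7% of all genes were called higher and 22.2% lower. STAR was 1.11-fold higher under EZH2i than under CBPi (95% interval 1.03 to 1.19, adjusted p = 0.0151, edgeR) and FDXR 1.32-fold higher (1.23 to 1.42, adjusted p = 1.96e-06). CYP11A1 under EZH2i was at 77.2% of its level under CBPi (log2 fold change -0.37 ± 0.05 SE, adjusted p = 1.42e-06), and FDX1 at 80.1% (-0.32 ± 0.06, adjusted p = 1.74e-04). None of the 4 passed the test against 1.5-fold, by adjusted or by unadjusted p (0 of 4, edgeR's glmTreat), where 4.88% of all genes did. That test was run with no other tool. The difference in STAR was lost without CBPi replicate 2 (adjusted p = 0.066) or without EZH2i replicate 2 (adjusted p = 0.0784).

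Against forskolin the inhibitor groups were lower in all 4 genes, as were 31.3% of all genes under EZH2i and 29.5% under CBPi. STAR under EZH2i was 7.69-fold and under CBPi 8.52-fold below FSK, and CYP11A1 7.27-fold and 5.61-fold. FDX1 was 5.18-fold lower under EZH2i and 4.15-fold lower under CBPi, and FDXR 3.65-fold and 4.81-fold. Each of these passed the test against 1.5-fold, as did 7.81% of all genes as lower under EZH2i and 6.92% under CBPi. From high to low, STAR and FDXR ran FSK, baseline, EZH2i, CBPi, and CYP11A1 and FDX1 ran FSK, baseline, CBPi, EZH2i. Each neighbour in these orders differed past the threshold in the direct test, with the limit given above for STAR in the inhibitor groups.

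**Figure D3:**
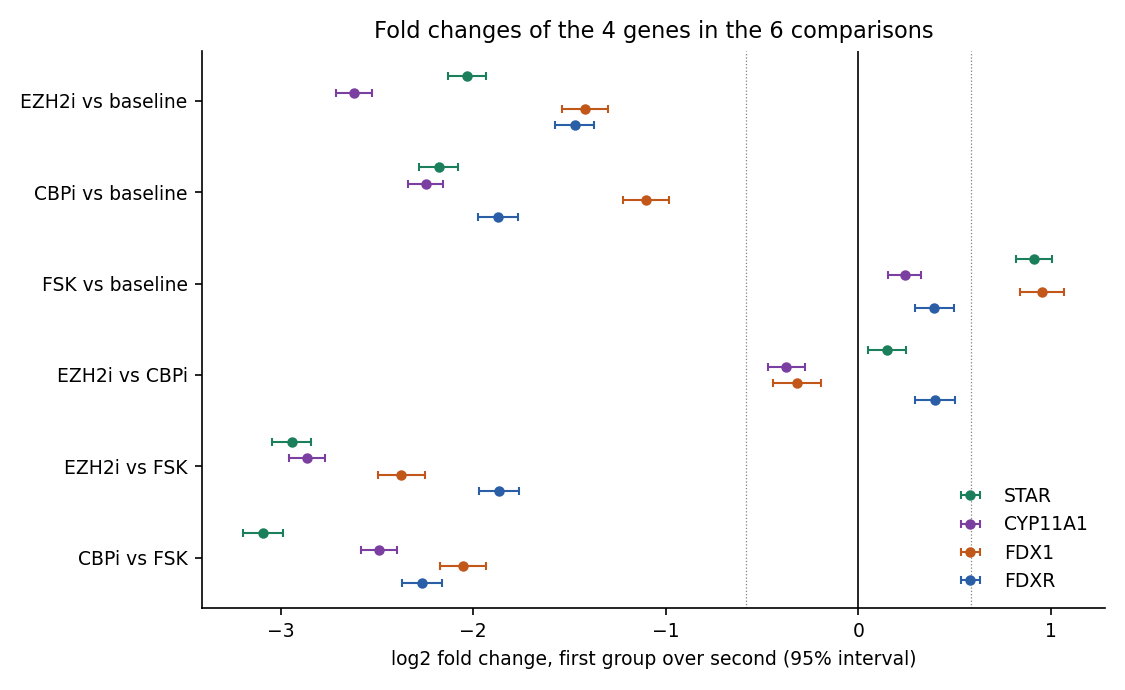
Log2 fold change of each gene, first group over second, in the 6 comparisons, with 95% intervals from the edgeR fit of 12 libraries. Dotted lines mark a 1.5-fold change. In EZH2i against CBPi, STAR and FDXR lie right of 0 and CYP11A1 and FDX1 left of it, all inside the dotted lines.

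The 4 genes did not change in proportion. Ratios of TPM between 2 genes of the same library do not depend on how libraries were scaled, and each of the 6 ratios differed among the 4 groups (exact permutation test over all 369600 assignments of 12 libraries, adjusted p = 1.95e-04 to 0.00123 over 6 ratios). The smallest p these assignments allow is 6.49e-05. With 3 libraries against 3 the smallest exact p is 0.1, so single pairs of groups are given as ranges.

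The ratio of ferredoxin to its reductase mRNA, FDX1 over FDXR, was 0.384, 0.362 and 0.377 under EZH2i, against 0.353, 0.376 and 0.353 at baseline, and these ranges overlapped. It was 0.647, 0.639 and 0.568 under CBPi and 0.543, 0.486 and 0.564 under FSK, above every baseline library. Both treatments thus had more ferredoxin mRNA per reductase mRNA, one with both mRNAs lower and the other with both higher.

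The ratio of the importer to the cleavage enzyme, STAR over CYP11A1, was 2.86 to 2.99 under EZH2i and 2.97 to 3.13 under FSK, against 1.86 to 1.99 at baseline. With CBPi it was 1.86 to 2.11, overlapping baseline. STAR over FDX1 was 3.94 to 4.25 under FSK and 3.95 to 4.49 at baseline, which overlapped, and was lower under EZH2i (2.68 to 2.80) and CBPi (1.88 to 2.14). For each treatment a different pair of genes therefore overlapped its baseline ratio, namely FDX1 and FDXR under EZH2i, STAR and CYP11A1 under CBPi, and STAR and FDX1 under FSK.

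Relative to the enzyme they serve, both electron carriers were higher in every treatment. FDX1 over CYP11A1 was 1.03 to 1.07 under EZH2i, 0.979 to 1.09 under CBPi and 0.729 to 0.793 under FSK, against 0.444 to 0.491 at baseline. FDXR over CYP11A1 was 2.69 to 2.95 under EZH2i, 1.55 to 1.72 under CBPi and 1.34 to 1.51 under FSK, against 1.26 to 1.31 at baseline. STAR over FDXR was 1.01 to 1.07 under EZH2i and 1.22 ± 0.02 under CBPi (SD, n = 3), both below baseline (1.48 to 1.59), and 2.07 to 2.22 under FSK, above it.

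**Figure D4:**
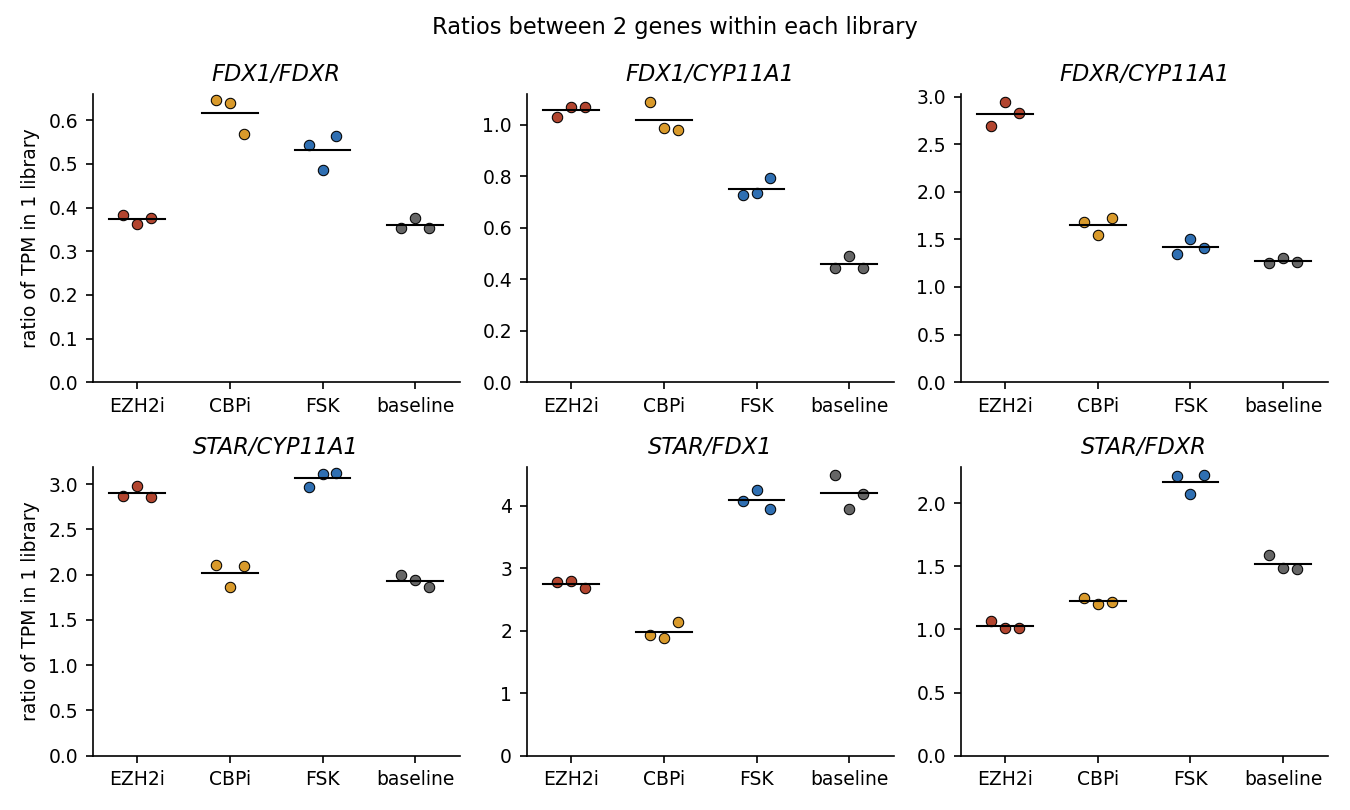
Ratio of TPM between 2 genes within each library (vertical axes, from 0) for the 6 pairs of genes, by group. Points are libraries and lines their mean. FDX1/CYP11A1 is above all baseline libraries in all 3 treatments, and STAR/FDX1 under FSK overlaps baseline.

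Genes that resemble or touch the 4 were examined, since reads can be shared. FDX1P1, a processed pseudogene of FDX1 on chromosome 20, had 46, 34.5 and 36.5 counts under EZH2i, 40, 49 and 41.5 under CBPi and 171, 168 and 162.5 under FSK, against 69.5, 98 and 88 at baseline. Its log2 fold changes of -1.54, -1.02 and 0.96 stand beside -1.42, -1.10 and 0.95 of FDX1, and whether its counts are FDX1 reads was not tested. STARP1 had at most 4.5 counts in any library, and FDX1P2 had none. FDX2, the mitochondrial paralogue that serves iron-sulfur cluster assembly, fell under EZH2i (log2 fold change -0.33 ± 0.10 SE, adjusted p = 0.00652, edgeR). With CBPi it was at 7.94 ± 0.65 CPM and under FSK at 8.32 ± 0.37 CPM, against 7.74 ± 0.75 CPM at baseline (adjusted p = 0.792 and 0.425, edgeR).

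At the 3′ end of STAR, ASH2L overlaps 428 bases on the opposite strand, with log2 fold changes of -0.34 under EZH2i, -0.35 under CBPi and -0.23 under FSK. ENSG00000253356 overlaps 2525 bases of STAR on the opposite strand, and had at most 10 counts in any library. An antisense gene without a symbol, ENSG00000261821, covers the 5′ end of CYP11A1. It had 47, 34 and 48 counts under EZH2i, 25, 38 and 38 under CBPi and 12, 23 and 10 under FSK, against 18, 19 and 21 at baseline. PPIAP46, annotated on the opposite strand within CYP11A1, had at most 8.67 counts. The antisense gene rose under EZH2i (log2 fold change 0.75 ± 0.25 SE, adjusted p = 0.0151, edgeR) and CBPi (0.73 ± 0.26, adjusted p = 0.0212), opposite to CYP11A1. The strand setting of the counts is not given in the sources used here, so reads of overlapping genes cannot be told apart. GRIN2C, a glutamate receptor subunit gene whose 5′ end lies 992 bases beyond the 3′ end of FDXR on the same strand, was chosen after its values were seen. It was at 16.9 ± 1.7 CPM under EZH2i, 19.4 ± 1.3 under CBPi and 78.9 ± 18 under FSK, against 33.4 ± 4.8 CPM at baseline (SD, n = 3), and it passed in all 3 comparisons (adjusted p = 5.01e-04, 0.00253 and 4.97e-05, edgeR). CCDC33, on the opposite strand 1286 bases beyond the 3′ end of CYP11A1, had 42, 43.5 and 65 counts under EZH2i. It had 24, 28 and 32 counts under CBPi and 58, 40 and 36 under FSK, against 69, 74 and 62 at baseline.

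The genes most like each of the 4 were ranked by Pearson correlation of log2 CPM over the 12 libraries, among 15015 other genes whose log2 CPM averaged 1 or more. The libraries are 4 groups of 3, so these values mainly describe group means. They compare the pattern over libraries and not the size of a change. STAR was most like CCL22 (0.998), C2CD2 (0.997), PRKACA (0.996), NR5A1 (0.996) and AKR1B1 (0.996). PRKACA encodes a catalytic subunit of protein kinase A, CCL22 a chemokine, and AKR1B1 an aldo-keto reductase. CCL22 was at 1.84 ± 0.34 CPM under EZH2i, 1.27 ± 0.14 under CBPi and 49 ± 2.4 under FSK, against 17.1 ± 0.61 CPM at baseline. CYP11A1 was most like ALDH1B1 (0.998), MAD2L2 (0.994), RAB8A (0.994), FH (0.992) and AP2S1 (0.992). ALDH1B1 and FH encode mitochondrial enzymes, an aldehyde dehydrogenase and fumarate hydratase.

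FDX1 was most like AP2M1 (0.997), AIF1L (0.997), SOAT1 (0.997), CYP21A1P (0.997) and QPCT (0.996). Sizes differed, with log2 fold changes under EZH2i, CBPi and FSK of -0.35, -0.28 and 0.19 for AP2M1. Those of CYP21A1P were -2.98, -1.99 and 2.03, against -1.42, -1.10 and 0.95 for FDX1. SOAT1 esterifies cholesterol for storage, and was at 103 ± 1 CPM under EZH2i, 144 ± 4.9 under CBPi and 522 ± 22 under FSK, against 279 ± 2.4 CPM at baseline. CYP21A1P is the pseudogene of the 21-hydroxylase gene CYP21A2 and can share its reads. FDXR was most like GALNT2 (0.996), ACAT2 (0.996), SYP (0.995), PRPS1 (0.993) and GSTO1 (0.992). ACAT2 encodes a cytosolic thiolase at the start of cholesterol synthesis. Among the 4 themselves the correlations were 0.938 (FDX1 with FDXR) to 0.989 (STAR with FDXR). FDXR was number 36 of 15018 genes in likeness to STAR, while FDX1 was number 483 in likeness to its partner FDXR.

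Among 15 tested genes of regulators of STAR and CYP11A1, 4 rose and 7 fell under EZH2i, 4 rose and 9 fell under CBPi, and 5 rose and 4 fell under FSK. Of all genes, 29.5% rose and 28.3% fell under EZH2i, 29.8% and 29% under CBPi, and 25.5% and 25.1% under FSK, so the FSK counts and the risers under both inhibitors were near the share over all genes. The median log2 fold changes were -0.12, -0.31 and -0.04, against 0.02, 0.01 and 0.01 over all genes, here and for the lists below. NR5A1, the SF-1 gene, fell under both inhibitors by less than any of the 4 genes and rose under FSK (log2 fold change -0.75, -0.86 and 0.41), with 351 ± 7.8 CPM under EZH2i, 323 ± 27 under CBPi and 781 ± 29 under FSK, against 588 ± 6.3 CPM at baseline. CREM, a cAMP-responsive factor, moved the same way (log2 fold change -0.74, -0.76 and 0.42). NR4A1, an orphan nuclear receptor induced by ACTH, was at 258 CPM under EZH2i, 198 under CBPi and 1095 under FSK, against 325 CPM at baseline, and passed in all 3 comparisons. NR0B1, the repressor DAX-1, rose under EZH2i (log2 fold change 0.98, adjusted p = 3.23e-08, edgeR) and fell under FSK (-1.76, adjusted p = 4.59e-10), and did not pass under CBPi (-0.24, adjusted p = 0.0679). GATA6 fell in all 3 (-0.59, -0.97 and -0.44) and SREBF1, the lipid regulator, likewise (-1.04, -0.28 and -1.60). Other regulators rose under the inhibitors, namely SP1 (0.32 and 0.35) and CITED2 (0.55 and 0.28) under EZH2i and CBPi, NR4A2 under EZH2i (0.58), and CREB1 and CEBPB under CBPi (0.50 and 0.47). Under FSK NR4A2 rose (1.66) and TRERF1 fell (-1.06).

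Of 7 genes that handle STAR mRNA or protein, ZFP36L1, an RNA-binding protein known to bind STAR mRNA and promote its decay, rose 2.46-fold under EZH2i and 2.53-fold under CBPi. It fell under FSK (log2 fold change -0.40, adjusted p = 2.79e-05, edgeR). Its relative ZFP36L2 had the opposite pattern (-0.99, -1.08 and 1.08). ZFP36 rose in all 3 (0.49, 0.69 and 0.33). LONP1, the mitochondrial protease that degrades StAR, fell under EZH2i (-0.22) and rose under CBPi (0.54) and FSK (0.48). AFG3L2, another mitochondrial protease, fell under EZH2i and CBPi (-0.46 and -0.25). In all, 2 of the 7 rose and 3 fell under EZH2i, 3 rose and 2 fell under CBPi, and 4 rose and 1 fell under FSK. Over all genes 29.5% and 28.3%, 29.8% and 29%, and 25.5% and 25.1% did, and with 7 genes the counts under the inhibitors lay near these shares. Their median log2 fold changes were 0.01, 0.09 and 0.30.

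Of 10 tested genes of other mitochondrial cholesterol delivery, 2 rose and 4 fell under EZH2i, 2 rose and 3 fell under CBPi, and 5 rose and 2 fell under FSK (median log2 fold change -0.08, -0.09 and 0.17). The shares over all genes were 29.5% and 28.3%, 29.8% and 29%, and 25.5% and 25.1%, and the counts under CBPi were near or below them. STARD4, a cytosolic sterol carrier, rose 1.98-fold under FSK and 1.23-fold under CBPi, and was at 143 CPM under EZH2i against 148 CPM at baseline (adjusted p = 0.321, edgeR). STARD3, a late endosomal sterol carrier, rose under CBPi and FSK (0.25 and 0.35), and STARD3NL fell under FSK (-0.81). VDAC1, the outer membrane channel, fell under EZH2i and CBPi (-0.33 and -0.50) and rose under FSK (0.37). DBI, the acyl-CoA binding protein, fell in all 3 (-0.67, -0.87 and -0.64). TSPO, the outer membrane translocator protein, was low throughout, at 2.73 to 3.56 CPM in group means. It fell under EZH2i (log2 fold change -0.39, adjusted p = 0.0382, edgeR) and did not pass under CBPi or FSK. STARD5, a sterol carrier at 2.07 CPM, and ACBD3, a Golgi protein, rose under EZH2i (0.84 and 0.21).

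**Figure D5:**
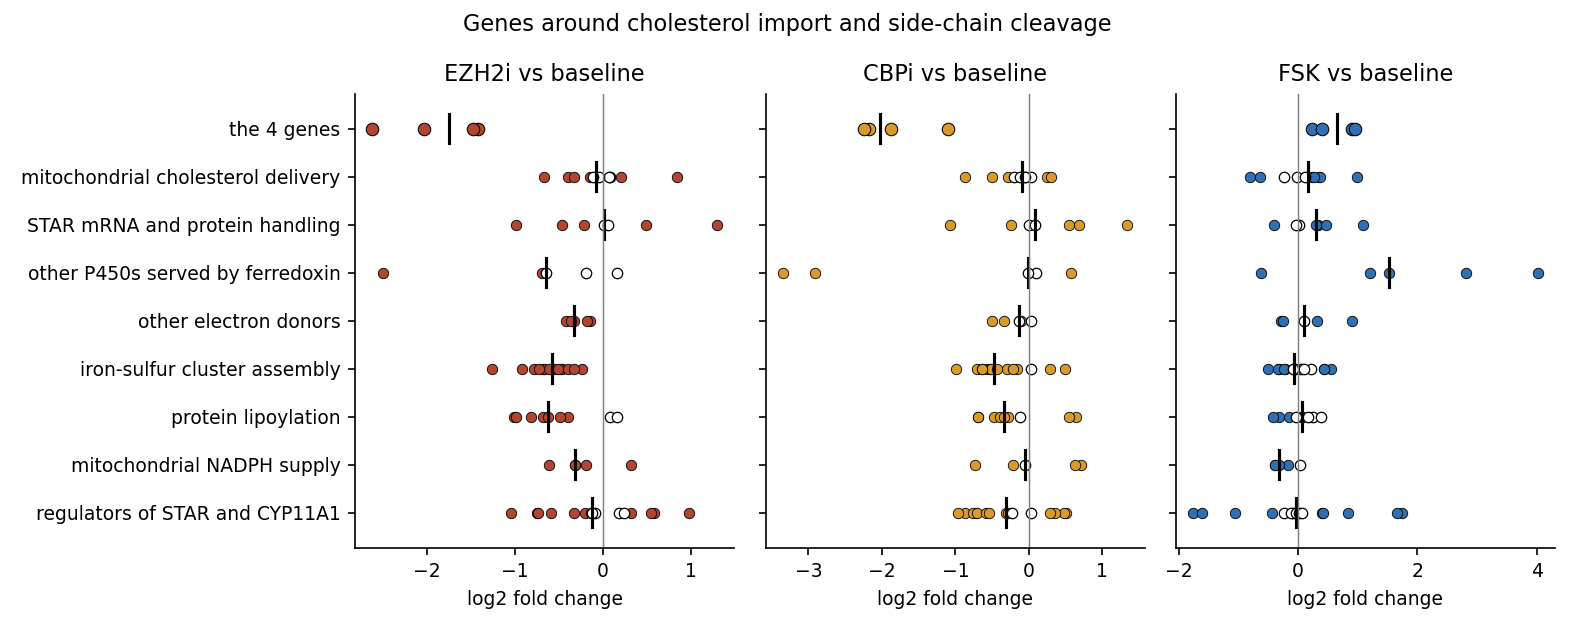
Log2 fold change over baseline (horizontal axes) of STAR, CYP11A1, FDX1 and FDXR (top row) and of 8 lists of related genes, for EZH2i, CBPi and FSK. Filled points passed an adjusted p of 0.05, open points did not, and black bars are medians. The 4 genes have a median of -1.75 under EZH2i and -2.03 under CBPi, below the medians of the other 8 lists drawn. The adrenocortical list, not drawn, had medians of -2.28 and -2.25, lower than those of the 4 genes. With FSK the median of the 4 genes is 0.65. That is below the 1.52 of the other P450 genes served by ferredoxin, and above the medians of the remaining lists drawn.

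Genes that build iron-sulfur clusters, the cofactor of ferredoxin, fell under EZH2i in 14 of 14 cases (median log2 fold change -0.58), where 28.3% of all genes fell. With CBPi 11 fell, where 29% of all genes did, and ISCU and HSPA9 rose (median -0.48). With FSK 5 fell, and HSPA9, IBA57 and BOLA3 rose (median -0.06), near the 25.1% and 25.5% of all genes. NFS1, the cysteine desulfurase that supplies sulfur, was at 25.5 CPM under EZH2i, 30.8 under CBPi and 49.2 under FSK, against 61.1 CPM at baseline, and fell in all 3. BOLA3 fell under EZH2i and CBPi (-0.92 and -0.63) and rose under FSK (0.43). Of 9 genes of protein lipoylation, 7 fell under EZH2i and 6 under CBPi (median -0.62 and -0.33), against 28.3% and 29% of all genes, while LIAS, the lipoyl synthase, and LIPT1 rose under CBPi (0.65 and 0.55). With FSK 3 fell, near the 25.1% of all genes, and DLST rose. DLD, shared by the lipoylated complexes, was at 70.2 CPM under EZH2i, 102 under CBPi and 128 under FSK, against 142 CPM at baseline, and fell in all 3.

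Of 5 genes of other electron donors, with FDX2 in this list and in that of cluster assembly, all fell under EZH2i and 3 under CBPi (median -0.33 and -0.13), where 28.3% and 29% of all genes fell. POR, the reductase of microsomal P450 enzymes, fell under EZH2i and CBPi (-0.42 and -0.33) and rose under FSK (0.32). CYB5B, an outer mitochondrial membrane cytochrome b5, rose 1.88-fold under FSK, where CYB5A and H6PD fell. Of the 5 genes of mitochondrial NADPH supply, which feeds the reductase, 4 fell under EZH2i, against the same 28.3%, and ME3 rose. With CBPi ME3 and NADK2 rose (0.71 and 0.63) while IDH2 and GLUD1 fell (-0.74 and -0.22), and under FSK 4 fell (median -0.32), against 25.1% of all genes. Among 5 other P450 genes that ferredoxin serves, 4 rose under FSK (median 1.52), against 25.5% of all genes, such as CYP24A1 (1.52), the vitamin D hydroxylase, and CYP27A1, the sterol 27-hydroxylase, fell (-0.62). CYP27B1, the vitamin D 1-alpha-hydroxylase, also rose under CBPi (0.57). Of the 5, 2 fell under each inhibitor, where 28.3% of all genes fell under EZH2i and 29% under CBPi. CYP11B2, the aldosterone synthase, fell under EZH2i and CBPi (-2.51 and -3.35) and rose under FSK (2.82), with reads it may share with its close paralogue CYP11B1. The CYP11B2 level was low outside FSK, at 0.25 CPM under EZH2i and 0.14 under CBPi, against 1.42 CPM at baseline. CYP11B1 itself averaged just below the log2 CPM of 1 set for naming genes. It rose 16.2-fold under FSK, to 7.20 CPM against 0.44 CPM at baseline, the largest rise of the list. CYP11B1 fell under CBPi (log2 fold change -2.91) and did not pass under EZH2i (-0.64, adjusted p = 0.205, edgeR).

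Markers of other cell types were few in these cultures. The chromaffin genes TH, DBH and PNMT were at 0 in every baseline library and at most 0.132 CPM elsewhere. CHGB, a granin gene also used as a chromaffin marker, was at 57.9 ± 3.3 CPM under EZH2i, 93.5 ± 2.2 under CBPi and 19.0 ± 0.92 under FSK, against 47.9 ± 1.1 CPM at baseline (SD, n = 3). The 6 fibroblast genes summed to 27.5 to 30.5 CPM under EZH2i, 13.3 to 17.5 under CBPi and 16.2 to 17.2 under FSK, against 33.8 to 35.8 CPM at baseline. Members differed under FSK, where COL1A1, COL1A2 and COL3A1 fell, while LUM rose (4.61 ± 0.75 CPM under FSK, against 0.04 ± 0.04 at baseline, adjusted p = 5.43e-11, edgeR) and DCN rose (1.66 ± 0.20 CPM, against 0.71 ± 0.21, adjusted p = 4.71e-04). The 5 endothelial genes summed to at least 2.88 CPM in each EZH2i library, most of it KDR, and at most 1.28 CPM in the other libraries, and the 5 leukocyte genes to at most 2.68 CPM in any library. The part of these genes, and of the mitochondrial count share, in the changes of the 4 genes was not tested.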

How the data were processed

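The authors deposited estimated counts (featureCounts output, 65.6% of non-zero values whole within 1e-06) per Ensembl gene for 12 libraries, and a gene length in bases. Per the submitters' processing notes, reads were aligned with the program STAR to hg38 and counted with featureCounts; their versions, the annotation, strand and multimapping options are not stated there. Of the 48 values of the 4 genes 31 were whole and 17 ended in 0.5. Columns matched the labels by name, and 60261 genes had a symbol.

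Counts were rounded and fitted in edgeR 4.0.16 (R 4.3.3) with filterByExpr, TMM scaling and 1 robust quasi-likelihood model of all 12 libraries. The Benjamini-Hochberg adjustment ran over 20360 genes (threshold 0.05), and p-values reflect only how replicate cultures of this line vary. SE is the log2 fold change over the square root of F. TPM used the deposited lengths. Ratios were tested on log2 counts (prior count 0.5). Named genes were chosen from the 4, up to 3 of each list with the largest changes that passed (log2 CPM averaging 1 or more), those that passed against a list's majority, regulators, the 5 most alike and relatives. The genes and lists were chosen with earlier results of these data known. Sequences are from RefSeq. The summed level of the chromaffin list is not reported here.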

Additional observations from a re-analysis of the deposited data

How the results depend on the processing

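Each of 24 results (4 genes in 6 comparisons) was recomputed under 22 alternatives: DESeq2 1.42.0, limma voom (limma 3.58.1), 4 other scalings, 2 other filters, fits of only the groups compared, the test against 1.5-fold and each library left out in turn. None of the 528 values changed sign and 520 stayed on their side of the threshold. Not all of them were free to move. The test against 1.5-fold reuses the main log2 fold changes, so it could not change a sign. A library outside the groups compared enters a value only through steps shared by all 12 libraries. The test against 1.5-fold ended the calls of CYP11A1 (0.24) and FDXR (0.39) with FSK and, between EZH2i and CBPi, of STAR (0.15), CYP11A1 (-0.37), FDX1 (-0.32) and FDXR (0.40), as it asks for a larger change. Leaving out 1 library moved STAR in EZH2i against CBPi between 0.095 and 0.18 on the log2 scale, and ended its call without CBPi replicate 2 or EZH2i replicate 2. The 6 ratios passed under all 78 alternatives (largest adjusted p = 0.00214, exact permutation).

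Over all genes, calls past 1.5-fold numbered 2323 of 11778 for EZH2i, 2491 of 11983 for CBPi and 2401 of 10299 for FSK against baseline, 994 of 8930 for EZH2i against CBPi, 3767 of 12541 for EZH2i against FSK and 3106 of 11972 for CBPi against FSK. By library size only, FSK calls split into 4119 higher and 6257 lower, against 5197 and 5102 with TMM, and CYP11A1 with FSK was still called, at 0.17. No paired analysis was possible because the labels give no replicate numbers. The replicate numbers used here only follow the order of the samples within each group.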
